A study of Homo sapiens with 6 samples.

Results

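The genes described here make, remove, carry or sense extracellular adenosine: the ectonucleotidases ENTPD1 (CD39), ENTPD3 and NT5E (CD73), the adenosine-consuming enzymes ADA and ADK, the receptors ADORA1, ADORA2A and ADORA2B, and the transporters SLC29A1 (ENT1) and SLC29A2 (ENT2). They were taken by symbol, 10 of the 56632 genes in each deposited table, and the set was picked because NT5E fell after Matrin3 knockdown. The fall of NT5E is therefore a description, and no test of it is given. The other 9 genes were added for their place in the same pathway.

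Poly(A) RNA was sequenced from HCT116, an established colorectal cancer cell line. The siCTRL group received a negative control siRNA and the siMatrin3 group a pool of siRNAs against MATR3, which encodes the nuclear RNA-binding protein Matrin3. Both groups were transfected in 2 rounds, and the labels give 72 hours and then 48 hours. The methods differ on the end point: they place reseeding at 48 hours and RNA purification at 3 days after the second round. Each group had 3 libraries, which the methods describe as biological replicates, so every statement concerns this line and these reagents, and p-values measure the spread between these libraries.

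Extracellular ATP and ADP are cut to AMP by ENTPD enzymes, and CD73 cuts AMP to adenosine at the cell surface. Adenosine then acts on G protein-coupled receptors: ADORA1 lowers cyclic AMP, while ADORA2A and ADORA2B raise it. Equilibrative transporters move adenosine across the membrane in either direction, and inside the cell it is phosphorylated to AMP by adenosine kinase or deaminated to inosine by adenosine deaminase. CD73 on tumour cells is known for feeding adenosine to immune cells, and ADORA2B is the receptor best known from intestinal epithelium.

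Because NT5E carries the main difference, the 250 bases before its start are shown, from RefSeq (chr6:85449833-85450082, GRCh38.p14, plus strand, 5′ to 3′). Capitals mark matches to the Sp1 box (GGGCGG) and to the core of the cyclic AMP response element (TGACGT), both searched on both strands, and the marked matches do not overlap.
NT5E: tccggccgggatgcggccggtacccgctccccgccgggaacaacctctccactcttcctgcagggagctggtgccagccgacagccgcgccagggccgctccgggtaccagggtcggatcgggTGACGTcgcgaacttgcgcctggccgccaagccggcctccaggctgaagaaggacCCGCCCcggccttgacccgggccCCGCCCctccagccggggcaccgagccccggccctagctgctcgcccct
The window had a GC content of 75.2%, 2 Sp1 boxes and 1 cyclic AMP response core, and no match to the hypoxia response core (ACGTG, also on both strands). Over all 35116 RefSeq promoter windows of this length, 42.6% held the Sp1 box, 7.10% the cyclic AMP response core and 18.5% the hypoxia response core. A promoter was found for 8 of the 10 genes, not for ADORA2A or SLC29A2, and NT5E was the only one of the 8 with the cyclic AMP response core in any window. SLC29A1 has 2 windows, and the first held 2 matches to the hypoxia response core, which may overlap. These matches describe letters and were not tested for binding.

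The libraries held 40808173 to 54185650 expected counts. MATR3 (ENSG00000015479) stood at 186, 180.2 and 176 TPM (a transcript abundance scaled to length and to library total) in siCTRL and at 95.2, 112 and 111 TPM in siMatrin3, a fall of 41.5% in mean TPM. In counts the edgeR log2 fold change was -0.93 (SE 0.065, adjusted p = 7.67e-05), and with an offset for transcript length it was -0.76. The weighted transcript length of MATR3 was 2489 ± 57.1 bases in siCTRL and 2222 ± 35.3 bases in siMatrin3 (SD, n = 3 each), without overlap. The log2 difference was -0.16 (limma unadjusted p = 0.000757) and did not pass the correction (limma adjusted p = 0.369). Of 10 epithelial and colorectal markers, 6 reached 1 TPM in every library, among them EPCAM and KRT8, while CDH17, VIL1, CDX1 and LGR5 stayed under it. The summed level of these markers was 2947 to 3097 TPM in siCTRL and 2691 to 2917 TPM in siMatrin3, without overlap, and its part in the results was not tested. Of 7 fibroblast markers only COL1A1 reached 1 TPM in every library (13.6 to 19.03 TPM), and COL1A2, DCN and LUM were listed at 0, with sums of 13.7 to 16.2 TPM in siCTRL and 14.9 to 19.1 TPM in siMatrin3. Of 8 leukocyte markers only CD68 did so (11.5 to 18.2 TPM), and PTPRC was listed at 0, with sums of 12.3 to 17.7 TPM in siCTRL and 13.2 to 19.5 TPM in siMatrin3. None of the 4 endothelial markers matched did so, and their sums ran from 0.19 to 0.31 TPM.

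In the control cells the set was uneven. Mean levels in TPM, a scale per transcript length on which genes can be set side by side, were 50.9 ± 1.57 for ADK, 44.6 ± 4.63 for NT5E, 39.5 ± 0.864 for SLC29A1, 25.9 ± 0.707 for ADORA2B, 21.8 ± 1.42 for SLC29A2 and 15.4 ± 0.978 for ADA (SD, n = 3 libraries each). A clear step followed, to 3.15 ± 0.257 TPM for ADORA2A, 3.10 ± 0.145 TPM for ENTPD1 and 1.76 ± 0.176 TPM for ADORA1. ENTPD3 had 2 expected counts in siCTRL replicate 1 and 0 in each of the other 5 libraries, where a count of 0 allows up to 3 counts, 0.0554 to 0.0735 CPM (counts scaled to library size), counting error only. In this order ADK overlapped NT5E, and ADORA2A overlapped ENTPD1, while the libraries of all other neighbours were apart. NT5E lay above 85.4% of the genes tested in mean siCTRL TPM, and ENTPD1, the enzyme one step before it, above 31.1%. That ENTPD1 level is per length, on a weighted transcript length of 12387 bases in each siCTRL library. In counts ENTPD1 stood at 30.2, 32.7 and 30.4 CPM in siCTRL, beside 33.5, 33.8 and 32.2 CPM for ADORA2B.

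After knockdown NT5E moved down this order. It ranked 1, 2 and 2 among the 10 genes in the siCTRL libraries and 4, 5 and 5 in the siMatrin3 libraries. This move restates the fall for which the set was picked. The siMatrin3 order was ADK, SLC29A1, ADORA2B, SLC29A2, NT5E and ADA, with ADK overlapping SLC29A1 and SLC29A2 overlapping NT5E. The lower end was as in the control cells: ADORA2A at 3.21 ± 0.362, ENTPD1 at 2.93 ± 0.0833 and ADORA1 at 1.62 ± 0.187 TPM (SD, n = 3 each), with ENTPD3 listed at 0.

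**Figure D1:**
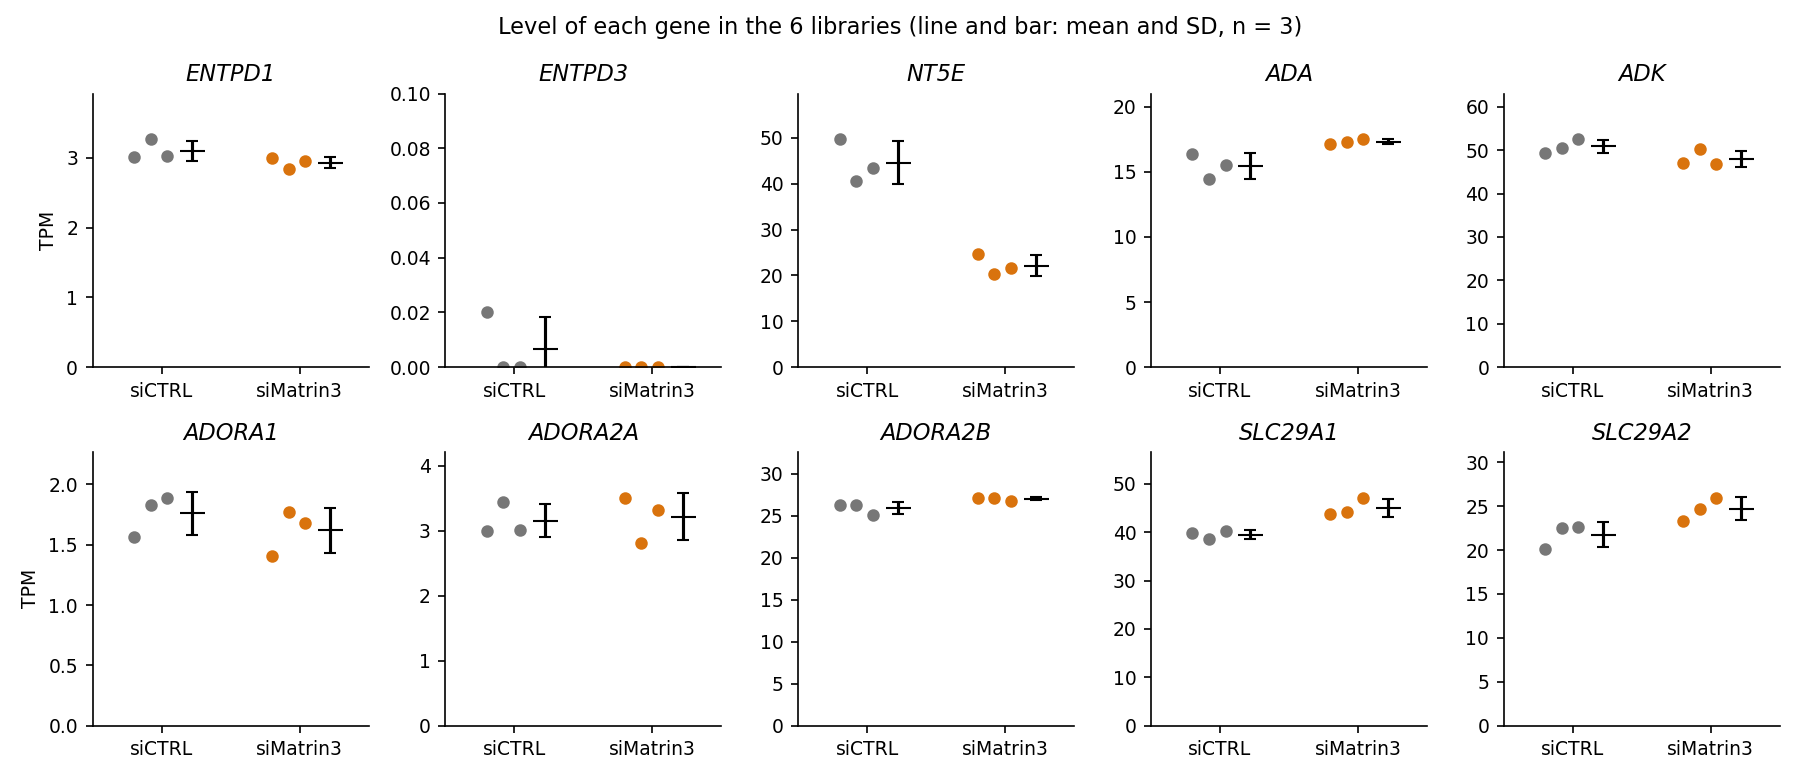
TPM (vertical axes, each from 0) of the 10 genes in the 3 siCTRL (grey) and 3 siMatrin3 (orange) libraries, with 1 point per library and, to the right of the points, a dash for the mean and a bar for the SD. NT5E is lower in every siMatrin3 library than in any siCTRL library, SLC29A1 and SLC29A2 lie slightly higher, and ENTPD3 is at or near 0 throughout.

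The largest difference in the set was that of NT5E, the gene for which the set was picked. Protein, enzyme activity and adenosine were not measured in these data. NT5E (ENSG00000135318), the enzyme that releases adenosine from AMP, stood at 49.8, 40.7 and 43.5 TPM in siCTRL and at 24.7, 20.2 and 21.6 TPM in siMatrin3. The groups did not overlap, and the lowest siCTRL library was well above the highest siMatrin3 library. The log2 fold change by edgeR was -0.98, a fall of the message by 49.5%. This value chose the set and is given without a test or an interval. In bulk RNA, fewer cells with the message and less message per cell cannot be told apart. The values rested on 2318 to 6655 expected counts per library, and the size of the fall lay between -1.07 and -0.89 on the log2 scale over 16 other ways of processing.

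ENTPD1 (ENSG00000138185), which makes the AMP that CD73 uses, stood at 3.01, 3.27 and 3.03 TPM in siCTRL and at 3.0, 2.84 and 2.96 TPM in siMatrin3. The groups lay side by side without overlap, by a very small margin. Its log2 fold change was -0.06 (95% confidence interval -0.16 to 0.04), which did not pass the test (edgeR adjusted p = 0.461). The ratio of NT5E to ENTPD1 TPM within a library was 16.5, 12.4 and 14.4 in siCTRL and 8.22, 7.13 and 7.29 in siMatrin3. This ratio repeats the fall of NT5E, which chose the set, and is a description only. It is per length and depends on the long weighted length of ENTPD1. ENTPD1 also shares exons on the same strand with a protein-coding gene for which no values were given. ENTPD3, a relative of CD39, had too few counts to be tested.

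Removal of adenosine rests on ADK and ADA inside the cell. ADK (ENSG00000156110) stood at 49.5, 50.6 and 52.6 TPM in siCTRL and at 47.1, 50.2 and 46.8 TPM in siMatrin3, so that siMatrin3 replicate 2 lay among the controls. Its log2 fold change was -0.07 (95% confidence interval -0.16 to 0.03, edgeR adjusted p = 0.349). ADA (ENSG00000196839) stood at 16.4, 14.4 and 15.5 TPM in siCTRL and at 17.1, 17.3 and 17.5 TPM in siMatrin3, without overlap. Its log2 fold change was 0.19 (95% confidence interval 0.06 to 0.31), which missed the threshold (edgeR adjusted p = 0.0672) and passed it in 1 of 16 alternatives, without siCTRL replicate 1. The ratio of ADK to ADA TPM was 3.02, 3.51 and 3.39 in siCTRL and 2.75, 2.90 and 2.68 in siMatrin3.

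None of the 3 adenosine receptors measured passed the test, with 0 at an unadjusted p under 0.05 by edgeR, beside 26.0% of all genes tested, and 0 called by DESeq2. ADORA2B (ENSG00000170425), the low-affinity receptor that raises cyclic AMP, stood at 26.3, 26.3 and 25.1 TPM in siCTRL and at 27.2, 27.1 and 26.8 TPM in siMatrin3, a log2 fold change of 0.08 (95% confidence interval -0.0039 to 0.17, edgeR adjusted p = 0.212). The siMatrin3 libraries all lay above the siCTRL libraries, by a small margin. ADORA2A (ENSG00000128271), the high-affinity receptor of the same direction, stood at 3.0, 3.45 and 3.01 TPM in siCTRL and at 3.51, 2.81 and 3.32 TPM in siMatrin3, and the groups overlapped fully (log2 fold change 0.07, 95% confidence interval -0.15 to 0.28, edgeR adjusted p = 0.720). ADORA2A shares exons on the same strand with a read-through gene, SPECC1L-ADORA2A, which had at most 0.09 TPM in any library.

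ADORA1 (ENSG00000163485), the receptor that lowers cyclic AMP, stood at 1.56, 1.83 and 1.89 TPM in siCTRL and at 1.41, 1.77 and 1.68 TPM in siMatrin3, again with overlap. Its log2 fold change was -0.15 with a wide interval (-0.44 to 0.14, edgeR adjusted p = 0.509), on 149 to 187 expected counts per library. Of the summed TPM of these 3 receptors, ADORA2B took 85.2%, 83.3% and 83.7% in siCTRL and 84.7%, 85.6% and 84.3% in siMatrin3, so one receptor made up most of the receptor message in every library. ADORA3 was not analysed here.

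Both transporters rose. SLC29A1 (ENSG00000112759), the main equilibrative nucleoside carrier of many cells, stood at 39.9, 38.6 and 40.2 TPM in siCTRL and at 43.7, 44.3 and 47.2 TPM in siMatrin3. All 3 knockdown libraries lay above all 3 controls, with a rise of 14.2% (edgeR log2 fold change 0.19 with SE 0.044, adjusted p = 0.021). SLC29A2 (ENSG00000174669), which also carries nucleobases, stood at 20.1, 22.5 and 22.7 TPM in siCTRL and at 23.4, 24.7 and 26.0 TPM in siMatrin3. It rose without overlap by 0.21 on the log2 scale (SE 0.05, edgeR adjusted p = 0.0254), or 15.5%.

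These rises were small and rested on single libraries for their call, though not for their direction. The SLC29A1 call was lost without siCTRL replicate 2 (edgeR adjusted p = 0.0615), siCTRL replicate 3 (0.0675) or siMatrin3 replicate 3 (0.0697), and its log2 fold change ranged from 0.17 to 0.21 over 16 alternatives. The SLC29A2 call was lost without siCTRL replicate 1 (edgeR adjusted p = 0.0696), siCTRL replicate 3 (0.054), siMatrin3 replicate 2 (0.0833) or siMatrin3 replicate 3 (0.108), with a range of 0.17 to 0.24. An offset for transcript length ended both calls, as did limma on log2(TPM + 1) and log2(TPM + 0.1), whereas DESeq2 and a block for replicate number kept both. SLC29A1 made up 66.5%, 63.2% and 63.9% of the summed TPM of the pair in siCTRL and 65.2%, 64.2% and 64.5% in siMatrin3, and these shares overlapped.

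Counted together, 9 of the 10 genes had enough counts to be tested. Leaving out NT5E, which chose the set, 2 of the 8 others passed the test, SLC29A1 and SLC29A2, both higher. Over all 16786 genes tested, 11% passed, 5.05% higher and 5.97% lower, or 847 and 1002 genes, against 636 and 1146 with upper quartile scaling. The 2 groups did not overlap in TPM for 6 of the 9 genes (NT5E, ENTPD1, ADA, ADORA2B, SLC29A1 and SLC29A2), and for 25.1% of all genes tested. Since the set was picked from this comparison, nothing is read from these counts. Without NT5E, the median log2 fold change of the 8 other tested genes was 0.07, and that of all genes tested was -0.0011.

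The wider pathway was followed in 8 lists chosen by function, with earlier results of these data known. They held 86 genes, of which 85 were matched and 61 tested, members included. Of the 60 tested genes other than NT5E, 12 were called higher and 6 lower, beside 5.05% and 5.97% of all genes tested. Given how the lists were chosen, nothing is read from these counts or from those of the single lists below. The balance of directions depended on the processing: with NT5E counted, 12 were higher and 7 lower, against 2 and 4 with an offset for transcript length and 0 and 4 with limma on either log2(TPM + 1) or log2(TPM + 0.1). Among these 18 calls, 2 were kept in all 16 alternatives, those of ENPP1 and PRKAR2B, and 0 changed sign. A mean-variance trend in limma was added after seeing the data and is not among the 16. The length offset ended 13 of them, limma on log2(TPM + 1) 15 and DESeq2 2.

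Of the other ectonucleotidases, 2 of 6 tested were called higher and 2 lower (median log2 fold change 0.02). Over all genes tested the shares were 5.05% and 5.97%. ENTPD2, which turns ATP mostly into ADP, had the highest TPM of the ENTPD ectoenzymes. It stood at 13.8, 13.5 and 13.6 TPM in siCTRL and 15.1, 14.7 and 16.4 TPM in siMatrin3. In counts it lay under ENTPD1, at 19.2, 18.3 and 18.7 CPM in siCTRL against 30.2, 32.7 and 30.4 CPM. It rose by 0.19 on the log2 scale, just past the threshold (edgeR adjusted p = 0.0494), and this call was lost in 13 of 16 alternatives, including the removal of any single library. ENPP1, which cuts ATP to AMP and pyrophosphate, fell from 2.15, 2.12 and 2.05 TPM to 1.35, 1.43 and 1.48 TPM (edgeR log2 fold change -0.48 with SE 0.081, adjusted p = 0.00569). That fall kept its call in 16 of 16 alternatives, but lost it when limma on log2(TPM + 0.1) was given that trend (limma adjusted p = 0.0609).

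The remaining calls in this group came from rare messages. ACP3, a phosphatase that can also cut AMP to adenosine, fell from 0.69, 0.55 and 0.73 TPM to 0.23, 0.27 and 0.34 TPM (log2 fold change -1.27, edgeR adjusted p = 0.0114), on 16 to 51 expected counts per library, and lost its call in 2 of 15 alternatives, once with siCTRL replicate 3 left out (edgeR adjusted p = 0.0526) and once with both libraries numbered 1 left out (0.0822). ALPL, the tissue-nonspecific alkaline phosphatase, had a log2 fold change of 1.23 in counts (edgeR adjusted p = 0.0213). Its TPM overlapped between the groups, at 0.43, 0.32 and 0.27 in siCTRL and 0.41, 0.72 and 0.72 in siMatrin3, and its call was lost in 7 of 15 alternatives, among them those without siCTRL replicate 1, without siCTRL replicate 3, without siMatrin3 replicate 2 and without siMatrin3 replicate 3. ENTPD8 stood at 0.59 TPM on average in both groups and did not pass. The 6 untested genes of the list, among them ENPP3, CD38 and the placental and intestinal alkaline phosphatases, had at most 13 expected counts in a library.

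Among the 4 ENTPD enzymes that act inside the cell or are secreted, edgeR called 1 higher and 0 lower. Over all genes tested the shares were 5.05% and 5.97%. ENTPD7 went from 5.02, 4.80 and 5.0 TPM to 6.47, 7.02 and 5.98 TPM (edgeR log2 fold change 0.43 with SE 0.071, adjusted p = 0.00484), a call lost with limma on TPM. It shares exons on the same strand with CUTC, so the origin of its reads is uncertain. ENTPD4, ENTPD5 and ENTPD6 had log2 fold changes of -0.04, 0.16 and -0.03.

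In removal and salvage of purines, 3 of 8 tested genes were called higher and 0 lower, beside 5.05% and 5.97% of all genes. By sign alone, 7 were positive and 1 negative (median log2 fold change 0.12). HPRT1, which salvages hypoxanthine and guanine, rose from 32.3, 34.2 and 35.8 TPM to 40.5, 49.04 and 46.8 TPM (edgeR log2 fold change 0.37 with SE 0.049, adjusted p = 0.00164). That call was lost only with limma (limma adjusted p = 0.0644 on log2(TPM + 1) and 0.099 on log2(TPM + 0.1)), and was kept when limma was given a mean-variance trend. PNP, which splits the inosine that ADA makes, rose by 0.16 on the log2 scale, from 53.3 ± 0.395 to 58.5 ± 2.0 TPM (SD, n = 3 each, edgeR adjusted p = 0.0332). MTAP, which recovers adenine from methylthioadenosine, rose by 0.16 (edgeR adjusted p = 0.0331), and its TPM overlapped between the groups. The PNP call was lost in 8 of 16 alternatives and the MTAP call in 9. AHCY and APRT, at 0.07 and 0.04, did not pass, nor did any of the 7 cytosolic nucleotidases and AMP deaminases tested by edgeR (2 at an unadjusted p under 0.05, where 26.0% of all genes tested lay, and 0 called by DESeq2), whose log2 fold changes ran from -0.13 for NT5M to 0.20 for AMPD3.

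Of the nucleoside carriers beyond ENT1 and ENT2, SLC29A3 and SLC29A4 were tested. SLC29A4, a monoamine and adenosine carrier of the plasma membrane, had 20.9, 18.9 and 21.3 TPM in siCTRL and 21.5, 24.8 and 26.2 TPM in siMatrin3 (log2 fold change 0.23, edgeR adjusted p = 0.049), and lost this call in 8 of 16 alternatives. SLC29A3, the lysosomal member, did not pass, at -0.08 on the log2 scale. The concentrative carriers SLC28A1, SLC28A2 and SLC28A3 had at most 7 expected counts in a library and were not tested.

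Of 9 ATP channels and P2 receptors tested, 1 was called higher and 1 lower, beside 5.05% and 5.97% of all genes tested. P2RY1, a receptor for ADP, fell from 1.04, 1.01 and 0.90 TPM to 0.55, 0.67 and 0.67 TPM (log2 fold change -0.63, edgeR adjusted p = 0.0247), a call lost without any single library. P2RX5, an ATP-gated channel, rose by 0.38 in counts (edgeR adjusted p = 0.0302), while its TPM overlapped between the groups and it shares exons with the read-through gene P2RX5-TAX1BP3. Its call was lost in 8 of 16 alternatives.

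The cyclic AMP arm below the receptors had 2 of 19 tested genes called higher and 3 lower (median log2 fold change -0.08). Over all genes tested the shares were 5.05% and 5.97%. PRKAR2B, a regulatory subunit of protein kinase A, fell from 7.04, 6.72 and 7.89 TPM to 5.01, 4.86 and 5.22 TPM (edgeR log2 fold change -0.51 with SE 0.078, adjusted p = 0.00349). The catalytic subunit PRKACB fell by 0.24 on the log2 scale, from 95.4 ± 5.77 to 82.9 ± 4.59 TPM (SD, n = 3 each, edgeR adjusted p = 0.0184). PRKAR1B, another regulatory subunit, rose by 0.28 (edgeR adjusted p = 0.0204). Of the adenylyl cyclases, which make cyclic AMP, ADCY3 rose by 0.17 and ADCY9 fell by 0.17 (edgeR adjusted p = 0.0228 and 0.0278). The calls of PRKACB, PRKAR1B, ADCY3 and ADCY9 were lost in 7, 8, 8 and 10 of 16 alternatives. The G protein subunits did not pass, with GNAS, the stimulatory subunit, at -0.10 and GNAI1, an inhibitory one, at 0.15.

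**Figure D2:**
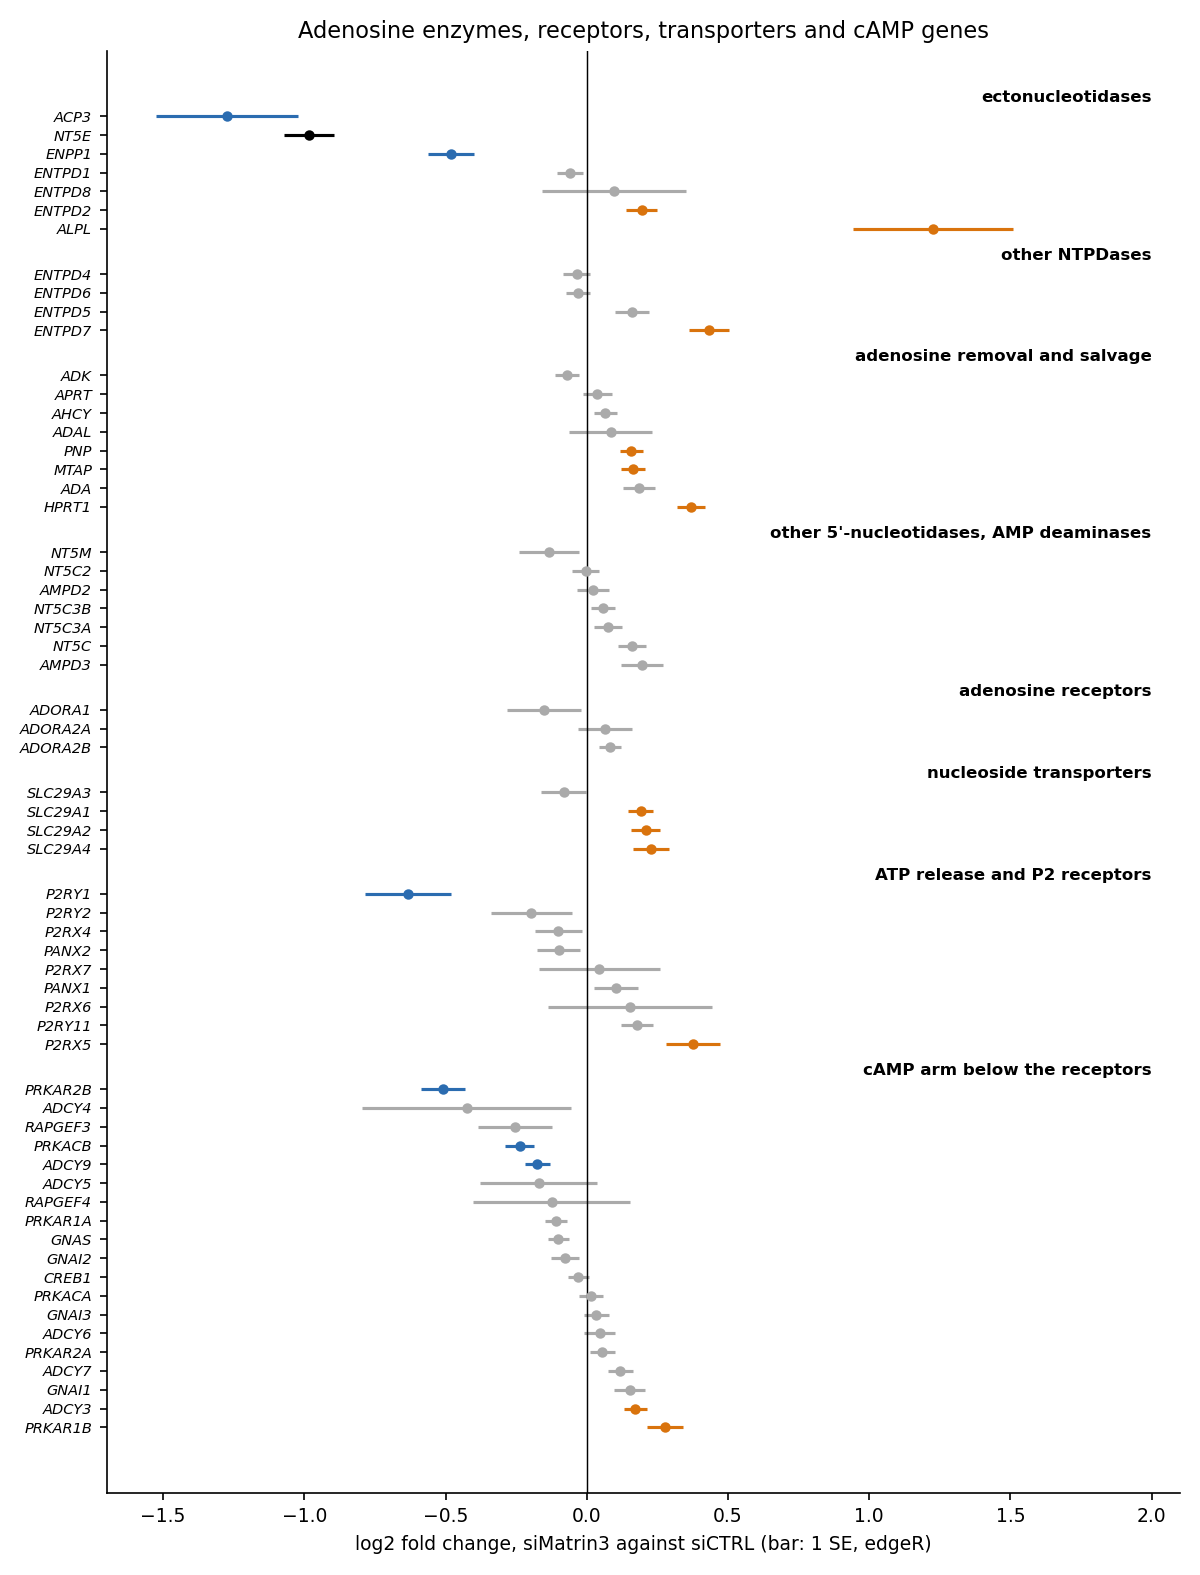
Log2 fold change of siMatrin3 against siCTRL (horizontal axis) with 1 SE from edgeR for the 61 tested genes of the 8 lists, ordered within each list. Orange marks genes past the threshold and higher, blue those lower, grey those that did not pass, and black NT5E. NT5E chose the set and is shown without a test, and its bar is not to be read as one. SLC29A1 and SLC29A2 lie at 0.19 and 0.21, and the 3 receptors are grey.

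The weighted transcript length, which RSEM averages over the transcripts of a gene, gave a second readout of each gene. For NT5E, with 5 annotated transcripts, it was 3270, 3190 and 3313 bases in siCTRL and 3232, 3414 and 3182 bases in siMatrin3. The groups overlapped, and the log2 difference was 0.01. ADORA1 was the only tested member with an unadjusted p under 0.05: its length was 2689, 2651 and 2671 bases in siCTRL and 2565, 2590 and 2597 bases in siMatrin3, without overlap, a log2 difference of -0.05 (SE 0.0092, limma unadjusted p = 0.00382, adjusted p = 0.491). This did not pass the correction. For the other 7 tested members the log2 difference lay between -0.02 for SLC29A1 and 0.01 for ADORA2A, with limma adjusted p of at least 0.886. With the genes of constant length left out, a setting chosen after seeing the data, ADORA1 had an adjusted p of 0.542 by limma. Over all 12148 genes with at least 2 annotated transcripts and enough counts, 0.00823% passed the adjusted threshold and 6.32% had an unadjusted p under 0.05.

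**Figure D3:**
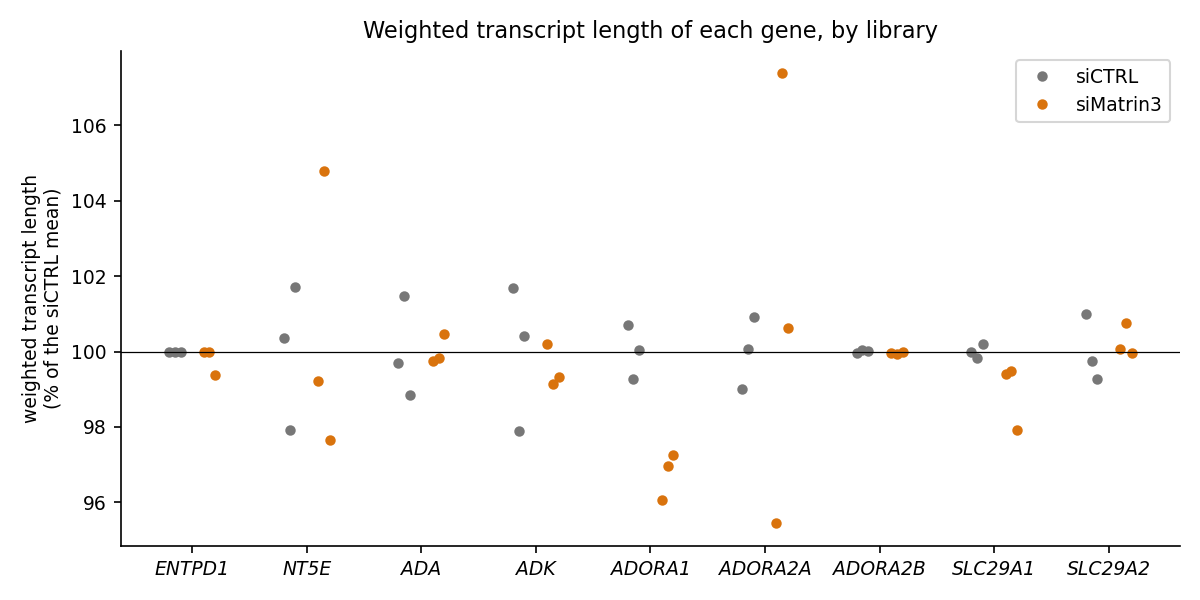
Weighted transcript length of 9 members as a percentage of their siCTRL mean (vertical axis, not from 0), with 1 point per library, grey for siCTRL and orange for siMatrin3. ADORA1 lies lower in all 3 siMatrin3 libraries, NT5E and ADORA2A scatter on both sides of 100, and ADORA2B hardly varies.

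The loci differed in size. The annotated gene span, from GENCODE release 44, ran from 9.69 kb for SLC29A2 to 559 kb for ADK, which is longer than 99.2% of the genes tested with a span. NT5E spans 46.2 kb, longer than 64.9% of them, and ADK, the longest of the set, did not pass the test of expression. A relation between span and fold change was not tested.

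The genes whose profile lay nearest to that of NT5E over the 6 libraries were AOC2, a copper amine oxidase, LMO7, a LIM-domain protein of cell junctions, BPNT2, a Golgi phosphatase that turns phosphoadenosine phosphate into AMP, MBD5, a methyl-CpG-binding domain protein, and MATR3 itself. Likeness was the root mean square difference of log2 CPM minus the siCTRL mean, and was 0.14 for AOC2, 0.16 for LMO7, 0.16 for BPNT2, 0.17 for MBD5 and 0.18 for MATR3, the smallest of 9567 protein-coding genes. The measure mainly finds genes with a fall of similar size, at log2 fold changes of -0.83, -0.85, -0.83, -0.79 and -0.93, and it is a description without a test. These are fits to counts, and MBD5 differed by less per length, at 10.1, 7.63 and 8.26 TPM in siCTRL and 5.85, 7.52 and 6.93 TPM in siMatrin3, with a log2 fold change of -0.35 under an offset for transcript length. AOC2 went from 9.06, 8.29 and 8.24 TPM to 4.84, 4.51 and 4.87 TPM, and BPNT2 from 21.9, 19.6 and 20.5 TPM to 12.3, 13.9 and 14.1 TPM. BPNT2 also fell by less in TPM than in counts, and its log2 fold change ran from -0.88 to -0.59 over 16 alternatives. MATR3 stood at -0.76 with an offset for transcript length. LMO7 shares exons with a long noncoding gene that had at most 0.97 TPM in any library.

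**Figure D4:**
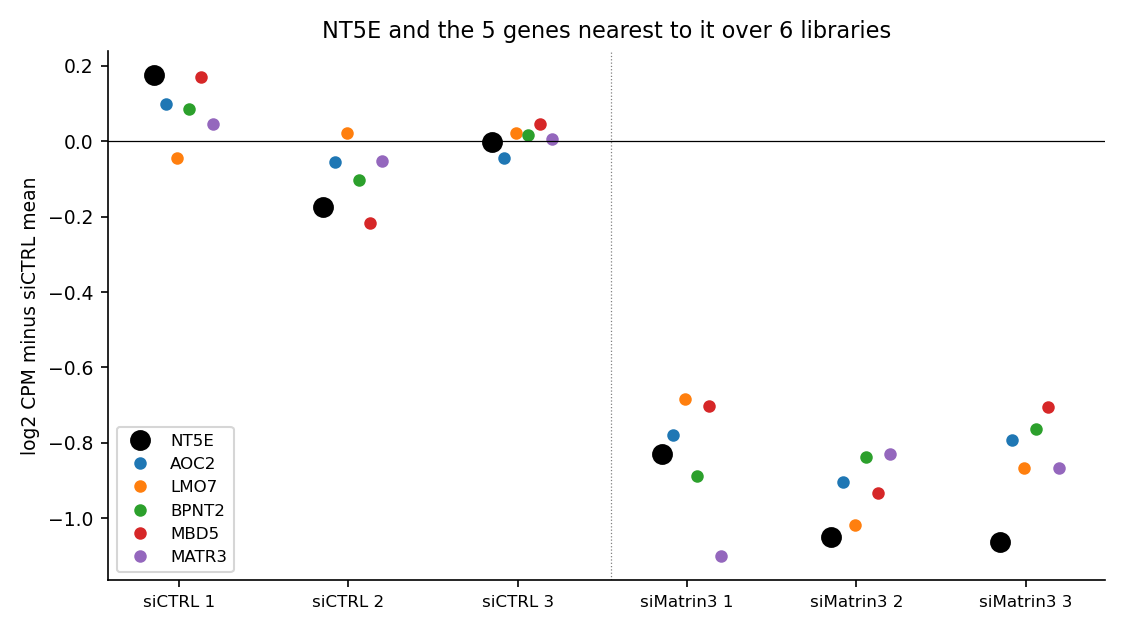
Log2 CPM minus the siCTRL mean (vertical axis) of NT5E (large black points) and the 5 genes nearest to it in each of the 6 libraries (horizontal axis), siCTRL left of the dotted line and siMatrin3 right of it. Every point in siMatrin3 lies below every point in siCTRL, and NT5E itself stands at -0.83, -1.05 and -1.06 in siMatrin3.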

How the data were processed

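RNA of the 6 libraries was prepared with a strand-specific poly(A) kit. The submitters' processing notes name cutadapt, STAR 2.5.1, RSEM and hg19, and the methods give another STAR version. Per the file headers, the authors deposited for each library expected counts, which are estimated counts that share out ambiguous reads, TPM, scaled by the authors to one total per library, and weighted transcript lengths, another RSEM output. Deposited FPKM values were not used.

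In R 4.3.3, expected counts were rounded and entered edgeR 4.0.16 after filterByExpr and TMM scaling, with a two-sided quasi-likelihood test and no covariate. The threshold was a Benjamini-Hochberg adjusted p under 0.05 over all genes tested. Weighted lengths were tested with limma 3.58.1 in genes with a minimum of 2 transcripts and of 50 expected counts in each of the libraries. Alternatives added after seeing the data were limma on TPM with a mean-variance trend and a length test without genes of constant length. The study used DESeq2, and DESeq2 1.42.0 was an alternative here. Intervals are 95% from the edgeR fit.

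Symbols, spans and exon overlaps came from GENCODE release 44 (GRCh38, not the build of the tables). 88.3% of genes had a symbol. Named were MATR3, all members, every called gene of the lists, ADORA3, ENTPD2, ENTPD8 and the 5 genes nearest to NT5E among protein-coding genes with a mean of at least 5 TPM. Other names show list members that did not pass. The members and lists were chosen with earlier results of these data known. Data were simulated from these libraries (3 against 3). On 16595 genes edgeR recovered 77.7% of 2-fold and 50.9% of 1.3-fold changes, with 19 false calls. On 12148 genes the length test recovered 72.5% of changes of 0.4 on the log2 scale, with 10 false calls. Only some genes were changed, so false calls are to be read against the genes called, not against all genes. Their share among the calls is not given, and the simulation does not show that the adjusted threshold held.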

Additional observations from a re-analysis of the deposited data

How the results depend on the processing

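Counts are given for the 10 genes, the 61 tested genes of the 8 lists and all genes, and were 3, 19 and 1849. The first 2 include NT5E, which chose the set and is no evidence of stability: where 1 of the 10 is left it is NT5E, and neither SLC29A1 nor SLC29A2 passed. An offset for transcript length gave 1, 6 and 710. limma gave 1, 4 and 323 on log2(TPM + 1), and 1, 4 and 235 on log2(TPM + 0.1). A mean-variance trend in limma, chosen after seeing the data, gave 1, 5 and 437 on log2(TPM + 1), and 1, 4 and 429 on log2(TPM + 0.1). At an adjusted p under 0.01 by edgeR the counts were 1, 5 and 561, and without replicate 1 of both groups 3, 12 and 1216. Leaving out 1 library gave 1 to 3, 5 to 14 and 759 to 1599. The count of the 10 genes fell to 1 without siCTRL replicate 3 or siMatrin3 replicate 3. The list count fell to 12 without siCTRL replicate 1, 5 without siCTRL replicate 3, 8 without siMatrin3 replicate 2 and 7 without siMatrin3 replicate 3, and that of all genes to 770, 1014 and 759 without the last 3 of these. Other scaling, filters and DESeq2 left the count of the 10 genes at 3. Upper quartile scaling moved the split of all calls from 847 higher and 1002 lower to 636 and 1146. The cause of these differences in counts was not tested.

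The labels number replicates in both groups. Same-numbered libraries deviated together only in part (r = 0.177, 0.0896 and 7.21e-05 across genes), against -0.145 to 0.0641 for differently numbered libraries. The numbers were not taken as pairs. With the replicate block, 3 of the 10 genes, 22 list genes and 2716 genes were called by edgeR, and the length test called 0 (limma, 817 at an unadjusted p under 0.05). Without the block the length test called 1 gene, which is no member, and 2 with a minimum of 20 counts. Without single libraries it called 0 to 5, with 5 without siMatrin3 replicate 1 and 0 without each of the others (limma, 745 to 866 at an unadjusted p under 0.05). ADORA2A changed sign in 1, never past the threshold. The interval of ADORA1, at 149 to 187 counts, was the widest of the members tested.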
